A study of Mus musculus with 21 samples.

Results

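The Hox genes of the mouse lie in 4 clusters, Hoxa, Hoxb, Hoxc and Hoxd, and this report describes where these clusters carried H3K4me3 and PSME3 in C2C12 myoblasts. The members were the protein-coding genes of the GRCm38.p6 gene table whose symbol is Hoxa, Hoxb, Hoxc or Hoxd followed by a number. There were 39 of them among 21896 protein-coding genes, 11 in Hoxa, 10 in Hoxb, 9 in Hoxc and 9 in Hoxd. A gene was counted with a mark when a listed peak lay within 1 kb of its span.

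C2C12 is a myoblast line from mouse leg muscle that fuses into myotubes when serum is withdrawn. CUT&RUN, in which an antibody directs a nuclease to cut out the DNA around a chromatin protein in permeabilized cells, was performed with antibodies against PSME3 and against H3K4me3. Cycling cells were grown in DMEM with 20% FBS, frozen unfixed in FBS with 10% DMSO, and assayed as 3 replicates per antibody. Day 2 cells were taken 48 h after a confluent culture was switched to 2% horse serum, and were assayed once per antibody in each of 4 preparations. These were cells frozen native, cells fixed for 5 min in 0.1% formaldehyde and frozen (frozen crosslinked), cells used fresh and unfixed (fresh native), and cells used fresh after the same fixation (fresh crosslinked). Cycling cells were handled as in the frozen native preparation. All cells were of the same line, with no genetic change or drug named in the labels. The 4 day 2 preparations differ from each other in handling, so they were compared with the 3 cycling replicates as a group, and the frozen native value is also given alone. The p-values measure the spread between these libraries. IgG libraries were not analysed here.

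Hox genes encode homeodomain transcription factors that set position along the body axis and along the limbs. The genes of a cluster are numbered by paralog group, and in the embryo the low numbers are used toward the head and the high numbers toward the tail and the distal limb. H3K4me3 is a histone mark laid down at active and poised promoters by the Trithorax group of methyltransferases, and silent Hox genes are instead covered by the Polycomb mark H3K27me3, which was not measured. In cells that use a run of Hox genes, H3K4me3 is known to spread over the whole run and its intergenic parts instead of staying at single promoters. PSME3, also called PA28-gamma or REG-gamma, is the nuclear activator of the 20S proteasome.

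Each deposited list gives the peaks of a library with a fold enrichment over background and a q-value, and all listed peaks had a q-value under 0.1. A pooled list of the 3 cycling replicates was also given for each antibody. Read numbers are not part of the lists. The depth is therefore unknown, and a fold enrichment was read against its own list. Between 14372 and 40999 H3K4me3 peaks were listed per library. Cycling replicate 2 stood apart with 40999 peaks of a median width of 662 bp, against 1348 to 1844 bp in the other 6 lists. The PSME3 lists held 776 to 3070 peaks in cycling cells and 18 to 186 at day 2. The identity of the cells was checked on marker genes. All 7 myoblast genes looked up (Myod1, Myf5, Des, Cdh15, Chrna1, Pax7 and Msc) had H3K4me3 in all 7 lists. The 7 genes of differentiating muscle (Myog, Mymk, Mymx, Ckm, Myh3, Tnnt2 and Acta1) all had H3K4me3 in all 4 day 2 lists, whereas Myog, Ckm, Myh3 and Acta1 had it in 0 of 3 cycling lists, Mymk in 1, Mymx in 2 and Tnnt2 in 3. Of 8 genes of other lineages, Neurod1 alone had a pooled peak, with a fold enrichment of 2.17. Sox10 had no pooled H3K4me3 peak but a pooled PSME3 peak with a fold enrichment of 2.61.

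The clusters also hold microRNA genes, and the H3K4me3 domains covered some but not all loci of the miR-196 seed (bases 2 to 8, in capitals). The mature sequences below, from RefSeq on GRCm38.p6, are shown because the 3 loci of the miR-196 seed AGGUAGU differ in H3K4me3, whereas the 2 loci of the miR-10 seed ACCCUGU, in Hoxb and Hoxd, were both uncovered.
miR-196a-5p: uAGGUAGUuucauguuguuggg
miR-196b-5p: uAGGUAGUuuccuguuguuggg
miR-10a-5p: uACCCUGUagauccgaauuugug
miR-10b-5p: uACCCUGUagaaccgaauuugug
The hairpin of Mir196b in Hoxa (chr6:52230081-52230165, minus strand) lay in an H3K4me3 peak in all 3 cycling and all 4 day 2 lists, and the hairpin of Mir196a-2 in Hoxc (chr15:102973350-102973434, plus strand) did so as well. The fold enrichment of their pooled peaks was 20.6 and 20.0. Mir196a-1 in Hoxb (chr11:96265164-96265265, plus strand), which gives the same mature 5p sequence as Mir196a-2, had no peak over its hairpin in any list, and the nearest pooled peak was 19102 bp away. For miR-10, the hairpin of Mir10a in Hoxb (chr11:96317165-96317274, plus strand) was not covered in any list, and a pooled peak at Hoxb4 began 809 bp away. The hairpin of Mir10b in Hoxd (chr2:74726070-74726137, plus strand) lay 99062 bp from the nearest peak. The microRNAs of the miR-196 family are known to target Hoxb8 mRNA. A peak over a hairpin does not measure the microRNA itself.

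In cycling cells H3K4me3 was found at 23 of the 39 Hox genes (59.0%) in the pooled list, close to the 60.9% of all protein-coding genes that had a peak. The genes were unevenly spread over the clusters. In Hoxa 10 of 11 genes had a peak, in Hoxb 6 of 10, in Hoxc 7 of 9 and in Hoxd 0 of 9. The Hoxb count rests on the pooled list, since the 3 cycling replicates had 2, 5 and 3 of 10, and Hoxb7 and Hoxb8 counted through a shared peak with a fold enrichment of 2.17 that was in 0 of 3 replicate lists. By paralog number, the anterior genes (1 to 3) had a peak at 4 of 8 genes, the central genes (4 to 8) at 10 of 15 (6, 10 and 7 in the replicates) and the posterior genes (9 to 13) at 9 of 16. All posterior genes of Hoxa (4 of 4) and Hoxc (5 of 5) were marked, and 0 of 2 in Hoxb and 0 of 5 in Hoxd. The 16 genes without a pooled peak were Hoxa5, Hoxb1, Hoxb2, Hoxb9, Hoxb13, Hoxc5, Hoxc8 and the 9 Hoxd genes. Of these, 13 had no peak in any of the 7 replicate and preparation lists either. The exceptions were Hoxb13, with a peak in cycling replicate 2 alone, Hoxc8, with a peak in cycling replicate 2 and in the fresh crosslinked list, and Hoxc5, with a peak in cycling replicate 2 and in both crosslinked day 2 lists. The map of the clusters shows the runs of marked and unmarked genes.

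**Figure D1:**
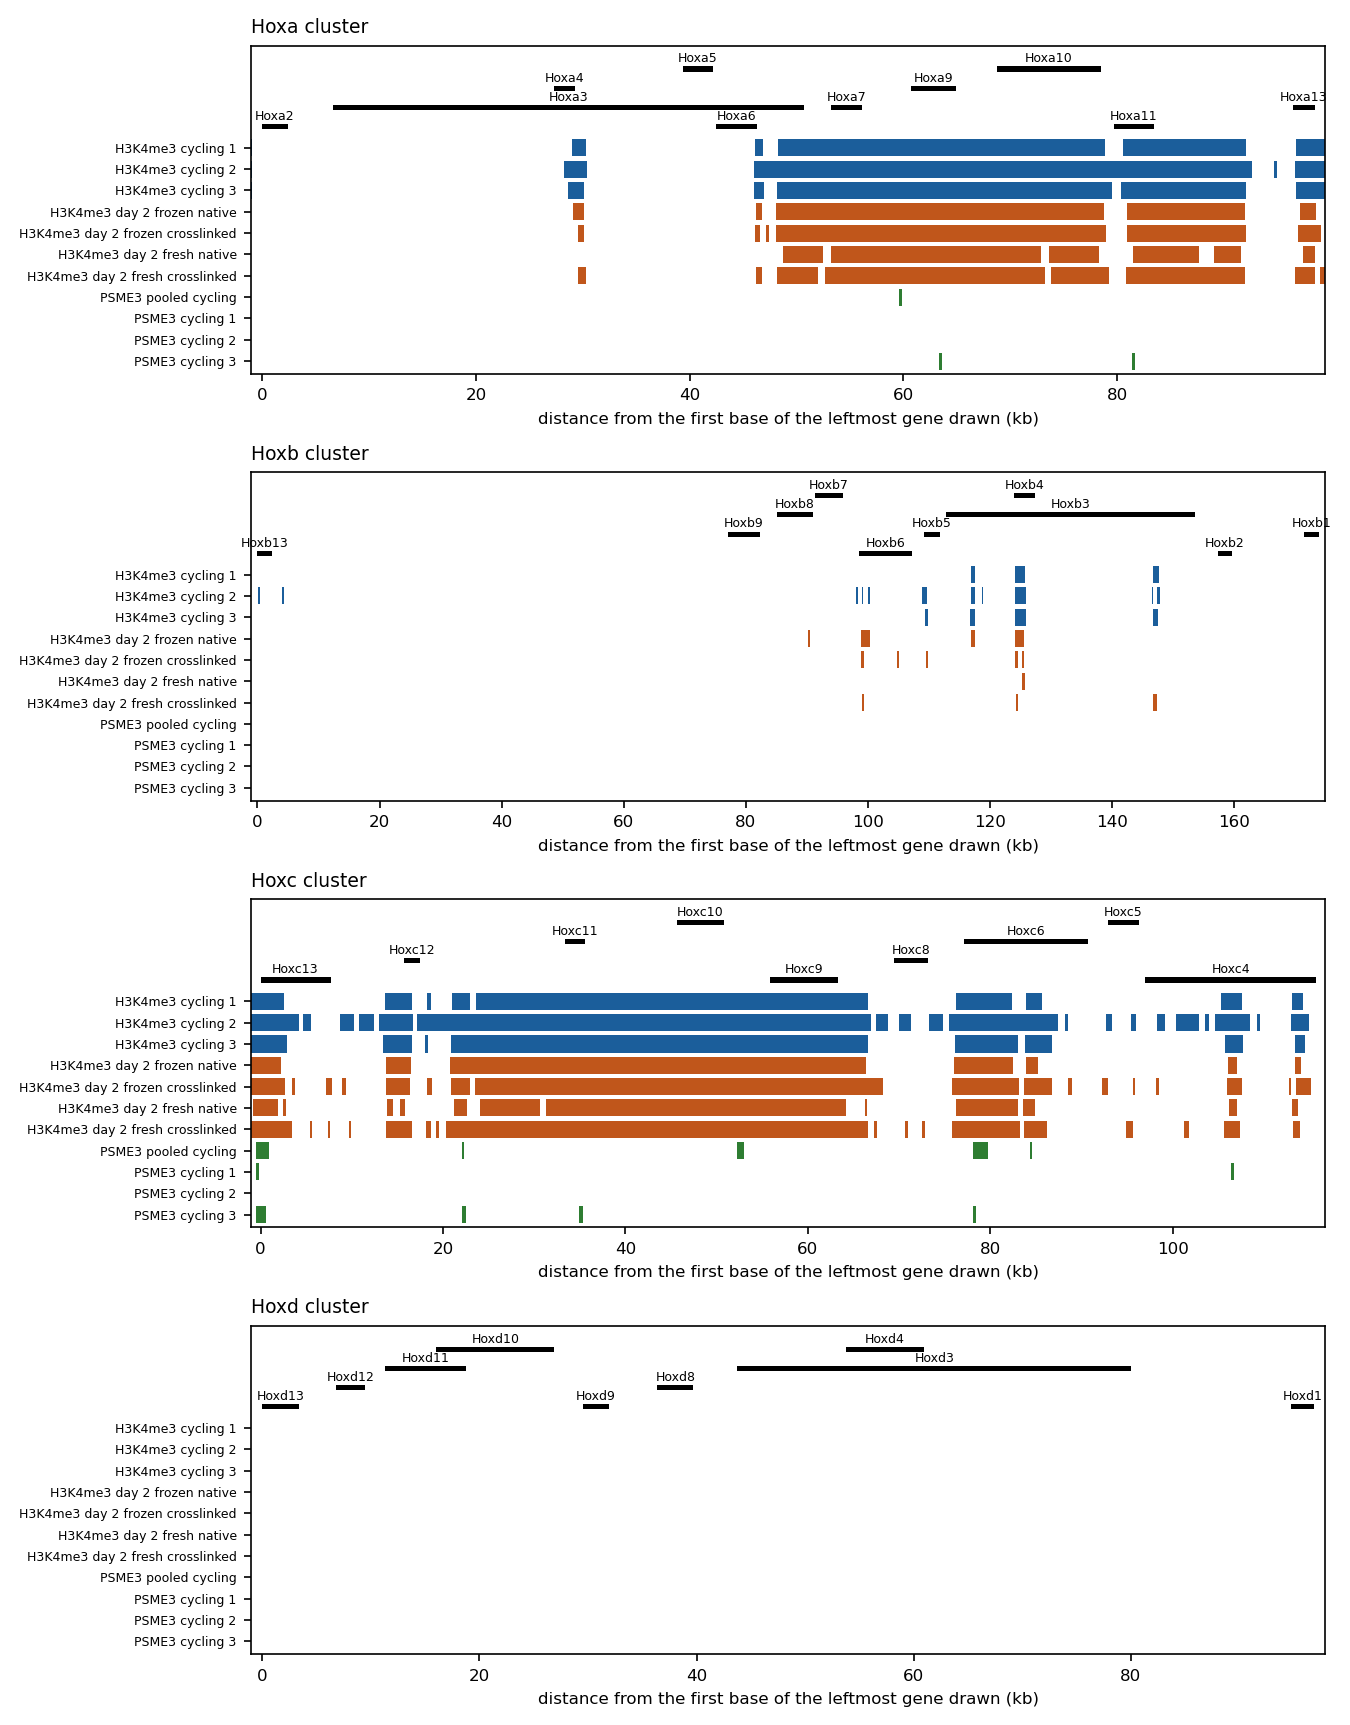
Peaks over the 4 Hox clusters by distance in kb from the first base of the leftmost gene drawn, with the genes in black. Rows are the 7 H3K4me3 lists (cycling in blue, day 2 in orange) and, in green, the pooled and 3 replicate PSME3 lists of cycling cells. Intervals end 1 kb outside the outermost genes drawn and the narrowest are drawn 0.25 kb wide. H3K4me3 forms a long block over Hoxa6 to Hoxa11 and another over Hoxc11 to Hoxc9, is narrow over Hoxb and is missing over Hoxd.

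The widest pooled H3K4me3 peak of the genome lay in Hoxc and the next widest in Hoxa, out of 23663 peaks whose median width was 1588 bp. The Hoxc peak (chr15:102941851-102988045) was 46195 bp wide with a fold enrichment of 20.0, and held Hotair, Hoxc11, Hoxc10, Mir196a-2 and Hoxc9 with the sequence between them. The Hoxa peak (chr6:52208355-52254519) was 46165 bp wide with a fold enrichment of 20.6, and held Hoxa7, Hoxa9, Mir196b, Hoxa10 and Hoxa11, with the 5′ parts of Hoxa6 and of Hoxa3, whose long span overlaps its neighbours. The third in rank was 38176 bp wide, on chromosome 15, and had no protein-coding gene within 1 kb. In the scatter of width against fold enrichment these 2 Hox peaks lay at the wide end of a tail, with the 38176 bp peak next to them. By fold enrichment the 2 Hox peaks lay at the 95.9 and 96.7 percentile. Hoxc9 to Hoxc11 and Hoxa9 to Hoxa11 are used in the posterior trunk and the limbs of the embryo, and Hoxa11 is also known to repress Myod1 in migrating muscle precursors.

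**Figure D2:**
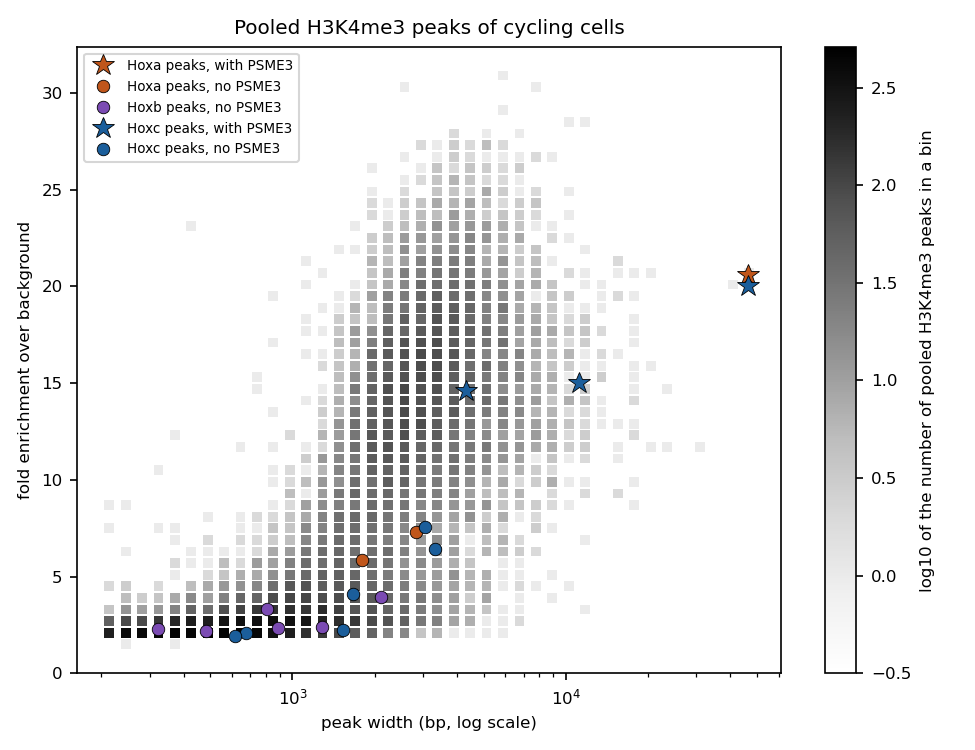
Width (bp, log scale) and fold enrichment over background of the 23663 pooled H3K4me3 peaks of cycling cells, with grey squares shaded by the log10 number of peaks in a bin. Coloured symbols are 18 of the 19 peaks within 1 kb of a Hox gene, drawn as stars where a pooled PSME3 peak overlaps. The 2 stars at the right edge are the 46165 bp and 46195 bp peaks of Hoxa and Hoxc, and the 4 stars are all peaks of 3 kb or more.

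These domains were present in every list. Their intervals were taken from the pooled list of the same 3 cycling replicates, which favours high coverage in those replicates. Of the Hoxc interval, 97.2, 100 and 98.7% was covered in cycling replicates 1, 2 and 3, and 98.6, 98.5, 88.6 and 99.4% in the day 2 lists, given in the order in which the preparations were named. Of the Hoxa interval, 92.6, 99.8 and 95.5% was covered in the cycling replicates and 91.6, 92.3, 79.7 and 90.0% in the day 2 lists. The same order is kept throughout. The fresh native list was the lowest for both, and the other 6 lists lay between 97.2 and 100% for Hoxc and between 90.0 and 99.8% for Hoxa. The widest peak of each of the 7 lists was the one in this Hoxc interval, between 32812 and 49707 bp wide, although the lists differed in number and median width of peaks. The widest peak in the Hoxa interval ranked at place 2 or 3 of its list, between 19607 and 46577 bp wide. The Hoxc peak lay between the 88.1 and 99.0 percentile of fold enrichment within its own list, and the Hoxa peak between the 85.6 and 98.1 percentile.

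The edges and gaps of the Hoxa domain recurred between lists. Its first base lay 40 to 240 bp inside the start of Hoxa6 in 6 of 7 lists, which places the edge at the 5′ end of that gene, and in the fresh native list it was absent from Hoxa6, whose window was covered to 0%. A gap of 810 to 3116 bp lay over the downstream end of Hoxa11 and the sequence between it and Hoxa10 in 6 of the 7 lists, reaching into Hoxa10 in the fresh native list, and cycling replicate 2 had none there. A stretch upstream of Hoxa6 was open in 6 of 7 lists, in gaps of 573 to 1438 bp in 5 of them and as part of a gap of 2749 bp in the fresh native list. In the Hoxc domain 3 of 7 lists had a gap of 553 to 1513 bp near Hotair, and the fresh native list alone had 2 more. Hotair is a long noncoding RNA transcribed opposite to the Hoxc genes.

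The spread of H3K4me3 over a gene, which is the percent of its span and 1 kb on each side covered by peaks, separated the members clearly. In the pooled list Hoxa7, Hoxa9, Hoxa10, Hoxa11, Hoxc9, Hoxc10 and Hoxc11 were covered whole, 7 of 39 Hox genes (17.9%) against 0.886% of all protein-coding genes. Covered whole in all 7 lists were Hoxa9, Hoxc10 and Hoxc11, 3 of 39 (7.69%) against 0.105% of all genes. These genes lie side by side within the same 2 peaks and are not independent of each other. The 7 spans with their margins were 4176 to 11658 bp long. A longer gene is less easily covered whole, and the share over all genes was not matched for length. Hoxc9 was covered whole in 6 lists and to 98.2% in the fresh native list. The rest of Hoxc carried narrower peaks. Hoxc6, a thoracic patterning gene, had a peak of 11168 bp with a fold enrichment of 15.0, rank 84 by width in the pooled list. Hoxc13, which is needed for hair and nail keratins, had a peak of 4312 bp with a fold enrichment of 14.6. Hoxc12 had 3319 bp with a fold enrichment of 6.44, and Hoxc4 had 3052 bp with a fold enrichment of 7.54 in an inner part of its span. Outside its long domain Hoxa had a peak of 2828 bp at Hoxa13 with a fold enrichment of 7.31 and 1799 bp at Hoxa4 with a fold enrichment of 5.88. Hoxa5 was the only Hoxa gene without a peak, and lay between the Hoxa4 peak and the domain that begins at Hoxa6.

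Hoxb was marked weakly. Its widest pooled peak, 2106 bp at Hoxb4 within the long span of Hoxb3, had a fold enrichment of 3.94, at the 47.2 percentile of all peaks. The next widest were 1285 bp within Hoxb3, with a fold enrichment of 2.39, and 885 bp at Hoxb5, with a fold enrichment of 2.35. The cluster from Hoxb13 to Hoxb1 was covered to 3.35% in the pooled list, against 51.2% for Hoxa and 61.5% for Hoxc. Hoxd was covered to 0% in all lists. The flanking genes Lnpk and Mtx2, on either side of Hoxd, had H3K4me3 peaks in all 7 lists with pooled fold enrichments of 16.5 and 16.4, so that the lists do hold peaks next to the cluster. Evx2, the homeobox gene next to Hoxd13, had none.

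**Figure D3:**
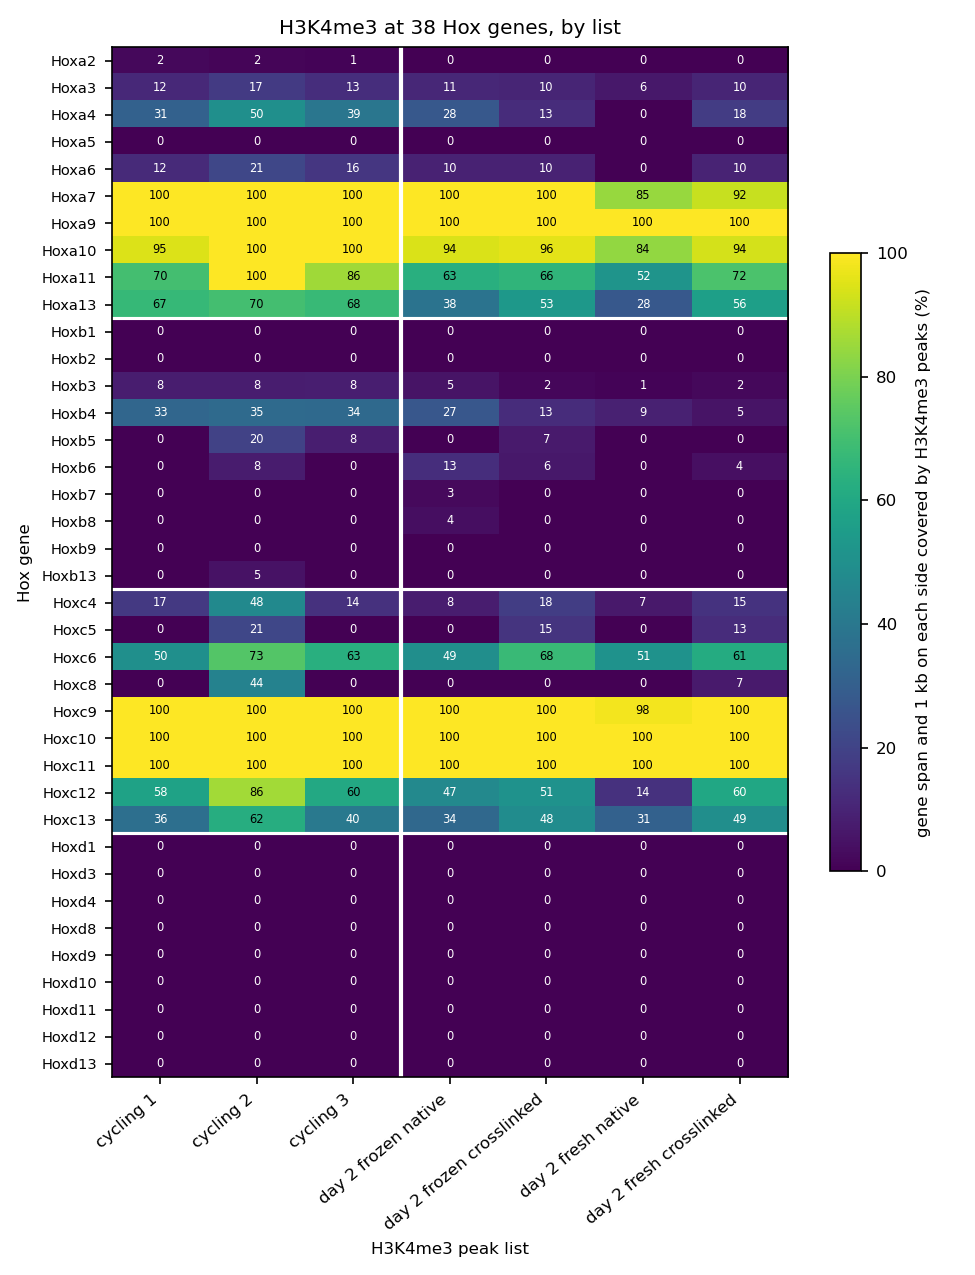
Percent of the span and 1 kb on each side of each of 38 of the 39 Hox genes covered by H3K4me3 peaks, as colour and number, in 3 cycling and 4 day 2 lists. Hoxa9, Hoxc10 and Hoxc11 are at 100% in all 7 lists, and Hoxa5, Hoxb1, Hoxb2, Hoxb9 and the 9 Hoxd genes are at 0 in all 7.

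The promoter sequences give the context of these differences for paralogs in marked and unmarked clusters. RefSeq promoter entries were given for 22 of the 39 genes, 9 in Hoxa, 3 in Hoxb, 1 in Hoxc and 9 in Hoxd, with 24 starts in all. The 250 bases before the start of Hoxa9 and Hoxd9, and of Hoxa13 and Hoxd13, are shown because the Hoxa start lay in H3K4me3 in all 7 lists and the Hoxd start in none. The pairs were chosen after the values were seen. Capitals mark every CG, the dinucleotide of CpG islands, which reads the same on both strands.
Hoxa9 (chr6:52227371-52227620, minus strand): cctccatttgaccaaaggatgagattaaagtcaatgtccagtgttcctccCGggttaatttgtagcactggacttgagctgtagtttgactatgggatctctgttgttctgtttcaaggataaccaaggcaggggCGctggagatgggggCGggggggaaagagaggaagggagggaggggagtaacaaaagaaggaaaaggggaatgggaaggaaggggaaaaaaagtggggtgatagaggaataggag
Hoxd9 (chr2:74697513-74697762, plus strand): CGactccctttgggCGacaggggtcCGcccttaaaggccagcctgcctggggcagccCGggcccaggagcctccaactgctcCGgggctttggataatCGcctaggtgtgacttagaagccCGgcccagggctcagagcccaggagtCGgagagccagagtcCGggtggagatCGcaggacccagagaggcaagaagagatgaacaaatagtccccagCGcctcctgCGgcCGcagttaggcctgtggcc
Hoxa13 (chr6:52260881-52261130, minus strand): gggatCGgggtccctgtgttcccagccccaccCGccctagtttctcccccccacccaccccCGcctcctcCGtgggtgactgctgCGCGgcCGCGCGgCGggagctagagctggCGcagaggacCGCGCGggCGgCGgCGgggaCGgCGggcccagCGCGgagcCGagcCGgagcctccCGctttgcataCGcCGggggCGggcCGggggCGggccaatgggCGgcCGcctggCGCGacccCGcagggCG
Hoxd13 (chr2:74667975-74668224, plus strand): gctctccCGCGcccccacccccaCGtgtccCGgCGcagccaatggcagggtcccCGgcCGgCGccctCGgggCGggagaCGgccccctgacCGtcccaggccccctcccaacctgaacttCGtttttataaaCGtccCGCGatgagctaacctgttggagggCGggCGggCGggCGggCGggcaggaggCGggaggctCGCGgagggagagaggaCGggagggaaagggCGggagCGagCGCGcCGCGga
Hoxa9 had 3 CG in this window and the unmarked Hoxd9 had 13. Hoxa13 had 35 and the unmarked Hoxd13 had 31. Over the 24 Hox starts, the median was 13.5 CG for the 10 starts within a pooled H3K4me3 peak and 12 for the 14 outside one. Most of the 10 lie in the long Hoxa domain and most of the 14 in Hoxd, so the starts are not independent of each other. The Hoxb4 start, counted among the 10, was covered in 0 of 3 cycling and 0 of 4 day 2 lists. Over all protein-coding promoters the medians were 17 for 11383 starts with H3K4me3 and 3.0 for 9879 without. At least 1 CG was present in 93.4% of all promoters and in all 24 of Hox. The 14 unmarked Hox starts, mostly of Hoxd, thus had a higher median CG than unmarked promoters in general, which is a description of these 250 bases.

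PSME3 was found at few Hox genes. In the pooled list 4 of 39 (10.3%) had a PSME3 peak within 1 kb, against 21.9% of all protein-coding genes, and Hoxa9, Hoxc13 and Hoxc6 were among them. Among genes with pooled H3K4me3, 4 of 23 Hox genes (17.4%) and 35.6% of all protein-coding genes also had PSME3. In the replicate lists PSME3 was at 2, 0 and 5 Hox genes in cycling replicates 1, 2 and 3 (5.13, 0.00 and 12.8%), in the order of 4.56, 3.60 and 13.4% of all genes in the same lists. Replicate 3 had the largest PSME3 list, with 3070 peaks. H3K4me3 was at 19, 24 and 20 Hox genes in the same replicates (48.7, 61.5 and 51.3%), and at 58.8, 63.6 and 59.1% of all genes. The mean share of Hox genes was 53.8% ± 6.78 (SD, n = 3) for H3K4me3 and 5.98% ± 6.45 (SD, n = 3) for PSME3, and the 2 groups did not overlap (p = 0.1 in an exact two-sided permutation test, which can give no smaller p for 3 against 3). With libraries of the same replicate number taken as pairs, the exact sign-flip test gave p = 0.25, also the smallest possible. The same separation is seen over all genes, with lists of 18077 to 40999 H3K4me3 peaks against 776 to 3070 PSME3 peaks, and is not particular to Hox genes.

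All pooled PSME3 peaks in the clusters lay over their whole length inside H3K4me3 peaks that were present in every cycling and day 2 list. At Hox genes this held for 5 of 5 peaks (100%, exact 95% binomial interval 47.8 to 100%, counting error only). Of all 5812 pooled PSME3 peaks, 93.6% overlapped H3K4me3 and 87.9% lay inside it over their whole length, so the Hox share was close to that of the list. Of the 5 pooled peaks, 3 were in no replicate list, 1 was in 1 list and 1 was in 2. At Hoxc13 the peak chr15:102920638-102922070 was 1433 bp wide with a fold enrichment of 2.62, and lay over the edge of the gene. It was the only one at a Hox gene found in 2 of the 3 replicate lists, 1 and 3. At Hoxc6 the peak chr15:102999237-103000824 was 1588 bp wide with a fold enrichment of 2.73, within the gene, and was found in replicate 3. A narrower peak of 245 bp in the same gene had a fold enrichment of 2.57 and was in no replicate list. In Hoxa a peak of 324 bp (chr6:52221984-52222307) with a fold enrichment of 2.72 lay beside Hoxa9. It was not in a replicate list, although replicate 3 had another peak within Hoxa9 (fold enrichment 3.81). The replicate lists also held peaks at Hoxc4 in replicate 1 (4.63) and at Hoxa11 (3.84) and Hoxc11 (3.10) in replicate 3 that the pooled list did not have.

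There were 2 further pooled PSME3 peaks in Hoxc with no Hox gene within 1 kb, both within the 46195 bp domain. A peak of 775 bp (chr15:102973323-102974097, fold enrichment 2.73) covered the Mir196a-2 hairpin, whose mature sequence is given above, and was in no replicate list. A peak of 260 bp (chr15:102943225-102943484) with a fold enrichment of 2.85 lay beside Hotair, and was also in the list of replicate 3. With a −log10 q of 2.85 it had the strongest q-value of the 7 PSME3 peaks in the clusters, which ranged from 1.38 to 2.85, or from the 16.1 to the 71.8 percentile of the pooled PSME3 list. By q-value the PSME3 peaks in Hoxa and Hoxc were thus of weak to ordinary strength for that list. By width the Hoxc6 peak of 1588 bp and the Hoxc13 peak of 1433 bp ranked at places 93 and 131 of 5812. The median width of the list was 431 bp, and the other peaks in the clusters ranked between places 1029 and 5093. Hoxb and Hoxd had no PSME3 peak in any list.

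PSME3 was found in the wide H3K4me3 peaks of the clusters. Of the 19 pooled H3K4me3 peaks within 1 kb of a Hox gene, 5 overlapped PSME3 (26.3%, exact 95% binomial interval 9.15 to 51.2%), against 22.3% of all 23663 peaks. With PSME3 peaks of at least 2 replicate lists it was 1 of 19 (5.26%), and with q-values of at most 0.01 it was 2 of 16 (12.5%), so these shares rest mostly on weak PSME3 peaks or on peaks of fewer lists. All 5 were among the 7 peaks of 3 kb or more, of which 71.4% (29.0 to 96.3%) had PSME3, against 44.1% of all peaks of that width. Of the narrower Hox peaks, 0 of 6 under 1 kb and 0 of 6 from 1 to 3 kb had PSME3, against 7.61% and 22.7% of all peaks of those widths. Of peaks of 10 kb and over, 3 of 3 at Hox genes and 86 of 123 in all (69.9%) had it. Counted by length, peaks of 3 kb or more at Hox genes held 0.592 PSME3 peaks per 10 kb of H3K4me3, and all peaks of that width held 1.02. The intervals of the Hox shares include the shares over all peaks in each of these width classes.

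At day 2 no Hox gene had a PSME3 peak in any of the 4 preparations (0 of 39 in each). Over all protein-coding genes 0.95% had one in the frozen native list, 0.402% in the frozen crosslinked, 0.0868% in the fresh native and 0.0776% in the fresh crosslinked list. At each of these shares fewer than 1 of 39 genes would be listed. The mean share of Hox genes was 5.98% ± 6.45 (SD, n = 3) in cycling cells and 0% in all 4 day 2 lists. The difference did not exceed the spread between libraries (two-sided exact permutation test, p = 0.286), since cycling replicate 2 also had none, and the smallest p that this test can give for 3 against 4 libraries is 0.0571. Without cycling replicate 3 the difference was 2.56 percentage points, and without replicate 2 it was 8.97.

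At day 2 the long domains of Hoxa and Hoxc were listed again, as given above. Fewer cells with the mark and less of the mark per cell cannot be told apart in these libraries. The day 2 lists had it at 21, 22, 16 and 21 Hox genes, and the cycling lists at 19, 24 and 20. Over all protein-coding genes the day 2 lists had it at 56.9, 57.6, 54.5 and 57.5% and the cycling lists at 58.8, 63.6 and 59.1%. The Hox shares were 53.8% ± 6.78 (SD, n = 3) in cycling cells and 51.3% ± 6.94 (SD, n = 4) at day 2, which overlapped (two-sided exact permutation test, p = 0.743). Without cycling replicate 2, or without the fresh native list, the difference changed sign, and against the frozen native list alone, at 53.8%, it was 0. A peak in all 7 lists was found at 16 of 39 Hox genes (41.0%), against 53.2% of all genes. They included Hoxa3, Hoxa7, Hoxa9, Hoxa10, Hoxa11, Hoxa13, Hoxb3, Hoxb4, Hoxc4, Hoxc6 and Hoxc9 to Hoxc13. All 9 posterior genes of Hoxa and Hoxc were among them.

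Of the 39 genes 3 were listed mainly at one stage. Hoxa2 and Hoxb5 had a peak in at least 2 of 3 cycling lists and at most 1 of 4 day 2 lists, 2 of 39 (5.13%) against 2.95% of all genes. The share of Hoxa2 that was covered was 1.97, 1.56 and 0.929% in the cycling lists and 0, 0.159, 0 and 0% at day 2, all at the outer edge of its 1 kb margin. Hoxb5 was covered to 0, 19.6 and 8.44% in the cycling lists and to 0, 7.11, 0 and 0% at day 2, with fold enrichments from 2.62 to 3.28. Hoxb6 went the other way, with a peak in at most 1 of 3 cycling and at least 3 of 4 day 2 lists, 1 of 39 (2.56%) against 0.475% of all genes. It was covered to 0, 7.68 and 0% in the cycling lists and to 13, 6.25, 0 and 4.29% at day 2, with fold enrichments from 2.69 to 3.26. The cycling and day 2 values of Hoxb5 and Hoxb6 overlap.

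The covered length of a gene was lower in all 4 day 2 lists than in all 3 cycling lists at 8 of 39 Hox genes (20.5%), against 23.8% of all genes, and higher at 0 of 39, against 0.671% of all genes. Hoxa2, Hoxa3, Hoxa4, Hoxa6, Hoxa13, Hoxb3 and Hoxb4 were among the 8, and no gene of the 2 long domains was apart from Hoxa3 and Hoxa6, which the Hoxa domain touches in part. The 8 genes are not independent of each other. Hoxa3 and Hoxa4 share a peak, as do Hoxb3 and Hoxb4, and Hoxa2 counts through a peak edge in its margin. Hoxa4 was covered to 31.1, 49.7 and 39.2% in cycling cells and to 27.5, 12.7, 0 and 17.8% at day 2. Hoxb4 was covered to 33.2, 34.6 and 34.0% in cycling cells and to 27.2, 12.8, 9.12 and 5.29% at day 2. For both the frozen native list, prepared like the cycling cells, was the highest of the 4 and still under all cycling lists. Hoxa13, the most posterior Hoxa gene, was covered to 67.1, 70.1 and 67.5% in cycling cells and to 38.0, 53.3, 27.6 and 56.4% at day 2. By fold enrichment Hoxa4 had 7.33, 4.22 and 9.46 in the cycling lists and 5.42, 4.77 and 3.37 in the 3 day 2 lists that listed it, but this ratio depends on each list's own background.

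A shorter covered length at day 2 was also found over all genes. The mean covered length was lower at day 2 for 20 of the 26 Hox genes with any peak, and for 91.5% of all genes with any peak. The median ratio of day 2 to cycling covered length was 0.715 over the 24 Hox genes with a cycling peak and 0.771 over 14126 genes. When covered length was instead taken as a part of all H3K4me3 peak length of the list, which sets aside that day 2 lists covered less of the genome, the direction was mostly the other way. The part was then lower in all 4 day 2 lists at 2 of 39 Hox genes (5.13%), Hoxa2 and Hoxa6, against 4.77% of all genes. It was higher at 6 of 39 (15.4%), Hoxa7, Hoxa9, Hoxa10, Hoxc9, Hoxc10 and Hoxc11, against 11.9% of all genes. The backgrounds over all genes on this scale were added after the data were seen. The 6 genes lie within the long domains and were covered whole or nearly so in most lists. All H3K4me3 peaks together covered 36144530 to 54781087 bp in the cycling lists and 23634003 to 35093783 bp in the day 2 lists, so that the part of a gene covered whole in every list had to be higher at day 2, and its count is no finding.

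The clusters were also compared as wholes, each on its own, and the change was not tested between clusters. With p-values adjusted over the clusters by Benjamini-Hochberg, the exact permutation tests of percent covered gave 0.229 for Hoxa, 0.229 for Hoxb and 0.61 for Hoxc. Hoxa was covered to 47.1, 51.8 and 48.6% in cycling cells and to 45.0, 45.4, 38.0 and 44.6% at day 2, so that all day 2 lists lay below all cycling lists. Its mean coverage was 49.2% ± 2.39 (SD, n = 3) in cycling cells and 43.3% ± 3.51 (SD, n = 4) at day 2, which is 5.89 percentage points apart. The exact permutation test, two-sided, gave p = 0.0571, the smallest it can give here. As a part of all peak length, the Hoxa mean was higher at day 2, with 0.125% ± 0.0203 (SD, n = 3) in cycling cells and 0.153% ± 0.0144 (SD, n = 4) at day 2 (exact permutation p = 0.114), and the cycling list with 0.140% lay above the frozen crosslinked list with 0.139%.

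Hoxc was covered to 53.6, 76.3 and 56.0% in cycling cells and to 51.9, 60.1, 46.3 and 58.8% at day 2. The means of 62.0% ± 12.5 (SD, n = 3) and 54.3% ± 6.40 (SD, n = 4) overlapped (two-sided exact permutation test, p = 0.457). Replicate 2 set most of the difference of 7.71 percentage points, which was 0.538 without it. As a part of all peak length Hoxc was higher in all day 2 lists, with 0.175, 0.164 and 0.167% in cycling cells and 0.193, 0.202, 0.231 and 0.213% at day 2 (exact permutation p = 0.0571, the smallest possible). Most of this length is the long domain, covered to 88.6% or more in every list, and all day 2 lists held less peak length in all, so the higher part follows largely from the scale.

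Hoxb was covered to 1.95, 3.21 and 2.27% in cycling cells and to 2.25, 0.960, 0.279 and 0.749% at day 2. Mean coverage was 2.48% ± 0.652 (SD, n = 3) before and 1.06% ± 0.842 (SD, n = 4) after the switch, with p = 0.114 (two-sided exact permutation test), and the frozen native list lay within the cycling values. Against that list alone the difference was 0.229 percentage points in place of 1.42. As a part of all peak length the Hoxb mean was also lower at day 2, with 0.00997% ± 0.000418 (SD, n = 3) and 0.00585% ± 0.00456 (SD, n = 4) (exact permutation p = 0.229), and the frozen native list, at 0.0125%, lay above all cycling lists. Hoxd was at 0 in all 7 lists. The plot of coverage by cluster shows how the choice of scale turns the direction for Hoxa and Hoxc.

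**Figure D4:**
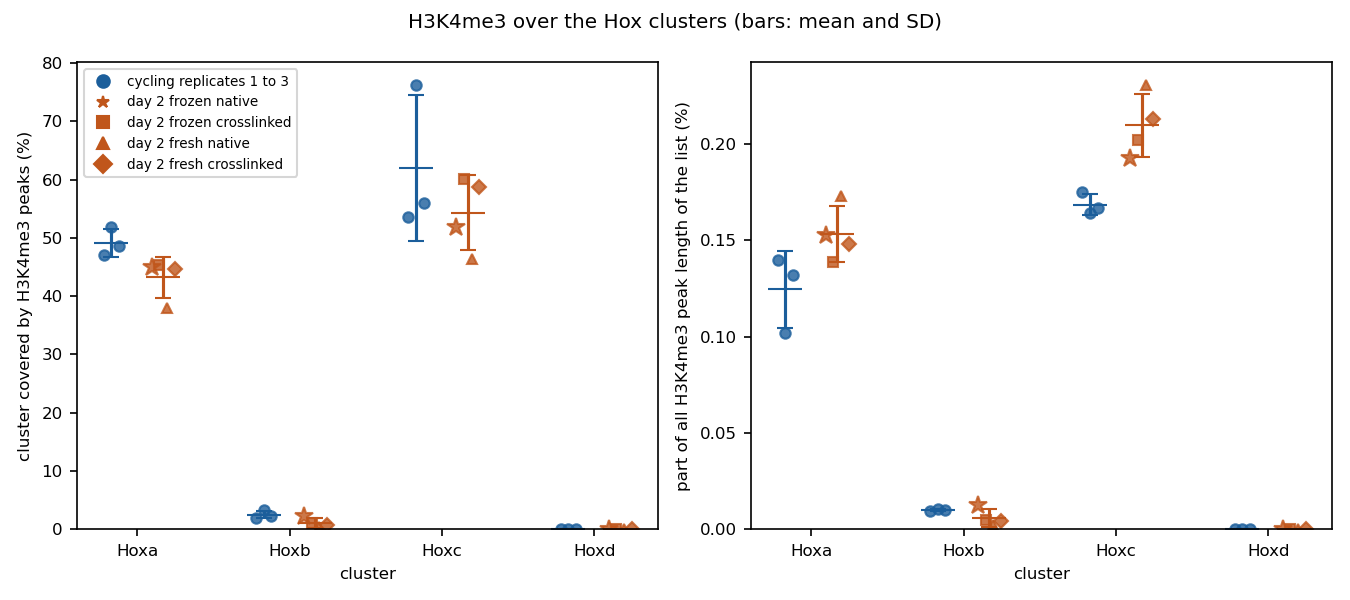
H3K4me3 over each Hox cluster, as percent of the cluster covered (left) and as percent of all H3K4me3 peak length of the list (right). Points are the 3 cycling replicates (blue) and 4 day 2 preparations (orange, a symbol each), and bars are mean and SD. The cycling and day 2 means of Hoxa are 49.2 and 43.3% on the left and 0.125 and 0.153% on the right, and Hoxd is at 0 throughout.

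Genes of proteins that work with Hox factors or regulate the clusters were looked up as lists. H3K4me3 was in all 7 lists at 9 of 9 genes of the Pbx, Meis and Pknox cofactors, which bind DNA together with Hox proteins, at 13 of 13 Polycomb genes and at 8 of 8 Trithorax genes, against 53.2% of all genes. Pooled PSME3 was at 4, 5 and 4 of them. The share was 21.9% of all genes and 35.6% of genes with pooled H3K4me3, which all of these had. Meis1 had an H3K4me3 fold enrichment of 30.4, Ezh2, the H3K27 methyltransferase, 16.2, and Kmt2a, the H3K4 methyltransferase that maintains Hox expression, 20.0. All 3 also had a pooled PSME3 peak, with fold enrichments of 3.19, 2.62 and 3.08. Of 16 genes that flank the clusters, 14 had pooled H3K4me3 and 10 had pooled PSME3, against 60.9% and 21.9% of all genes. The exceptions for H3K4me3 were Evx1 and Evx2, the homeobox genes at the posterior ends of Hoxa and Hoxd. Among all genes with pooled H3K4me3 the PSME3 share was 35.6%. Ttll6 and Calcoco2 had the same fold enrichments (4.81 for H3K4me3 and 2.63 for PSME3), as had Cbx5 and Hnrnpa1 (16.8 and 3.54). These neighbours may thus count through shared peaks. Of 11 other homeobox genes of related classes, 3 had pooled H3K4me3 and 0 had pooled PSME3. En1 had a fold enrichment of 24.8 and was in all 7 lists, with PSME3 in 1 cycling replicate list, whereas Gbx2 (3.36) and Gsx1 (3.37) were weak, and Gbx2 had a peak in 3 of 3 cycling and 0 of 4 day 2 lists. Of 9 noncoding RNAs of the clusters, 6 had pooled H3K4me3 within 1 kb and 3, with Hotair and Mir196a-2 among them, had PSME3. The share over all noncoding genes was not computed. H3K4me3 was in all 7 lists at 4 of the 9. Mir10a counted through the edge of the pooled Hoxb4 peak, with a peak in 0 of 3 cycling and 0 of 4 day 2 lists. Hottip, transcribed next to Hoxa13, touched the Hoxa13 peak in 3 of 3 cycling and 2 of 4 day 2 lists.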

How the data were processed

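The authors used Trim Galore for trimming, Bowtie2 for alignment and MACS2 for peak calling, on each library and on the cycling replicates pooled. The build per the labels is mm10, and versions, options and the control library are not given in the sources used here. The deposited lists hold for each peak a ratio (fold enrichment over that list's own background), a −log10 p-value and q-value, and a display score that was not used. The depth is unknown.

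Of 21 libraries 14 were used, and 7 IgG libraries were left out. Overlaps of at least 1 bp, covered lengths and exact permutation tests (2 times the smaller tail) used Python 3.11.15 (scipy 1.17.1, pandas 2.3.3, numpy 2.4.6) and were tested on simulated data. Gene spans came from GRCm38.p6, whose table gives no strand. Starts and strands came from the promoter table and were given for 22 Hox genes.

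Genes named with values were those with pooled PSME3, those touched by the 3 widest pooled H3K4me3 peaks of each cluster, those without pooled H3K4me3, and those that lost, gained or did not overlap between stages, with lists of cofactors, regulators, neighbours and markers. A gene that this rule selects is not reported by name here. Members and lists were chosen with earlier results of these data known. Alternatives were q-values of at most 0.05 or 0.01, windows of 0 or 3 kb or the gene start, stricter overlaps, share of peak length, each library left out and the replicate block. PSME3 and H3K4me3 libraries share replicate numbers. Deviations of their peak shares over 19 autosomes had a Pearson r of 0.540, 0.555 and 0.275 for replicates 1, 2 and 3, so the numbers were taken to pair them by the rule that each exceeds 0.1. H3K4me3 replicate 3 had an r of 0.522 with PSME3 replicate 1, and replicate 1 one of 0.266 with PSME3 replicate 3. Only replicate 2 is therefore told from the others.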

Additional observations from a re-analysis of the deposited data

How the results depend on the processing

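For the share of Hox genes with H3K4me3, cycling minus day 2, the difference of 2.56 percentage points changed sign when 50% of the peak or window had to be shared (-0.214) and with the peak centre (-1.92), was 0 against the frozen native list alone, and ranged from -1.28 to 5.13 with 1 library left out. As a part of all peak length, the cycling minus day 2 difference was -0.0285 percentage points for Hoxa and -0.041 for Hoxc, the reverse of that in percent covered. On the same scale the number of Hox genes lower at day 2 was 2 in place of 8, and of those higher was 6 in place of 0. The Hoxb difference of 1.42 was 0.229 against the frozen native list alone. It was 0.63 with peaks of at least 1 kb width and 0.867 at a q-value of at most 0.01. With PSME3 peaks of at least 2 replicate lists, 5.26% of H3K4me3 peaks at Hox genes had PSME3 in place of 26.3%, which is 1 of 19, and at a q-value of at most 0.01 it was 12.5%. The causes were not tested. With 1 library left out, the difference ranged from 2.56 to 8.97 for PSME3, from 41.0 to 52.6 for H3K4me3 against PSME3, from 4.14 to 6.92 for Hoxa, from 1.05 to 1.81 for Hoxb and from 0.538 to 11.9 for Hoxc, and the genes lower at day 2 numbered 8 to 12. At a q-value of at most 0.01 no Hox gene had PSME3 in any replicate list, and the 0 within 1 kb of the 24 known gene starts says little, since 8 of 9 Hoxc genes have no start in the table. The replicate block (exact sign-flip test) gave a difference of 47.9 with p = 0.25 and changed no call. With the peak centre in the window, the H3K4me3 against PSME3 difference was 29.9 in place of 47.9. The other alternatives kept the direction of each result that was not 0. The two-sided exact permutation test of 3 against 4 libraries cannot pass 0.05, so these p-values say nothing about stability. A depth that is unknown limits all counts of weak peaks.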
